A study of Mus musculus with 8 samples.

Results

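The transcripts described here encode 10 regulators at the centre of the heart muscle gene programme, namely Nkx2-5, Gata4, Gata6, Zfpm2, Hand1, Hand2, Isl1, Srf, Myocd and Smyd1. They were taken by gene symbol from a table of 15358 genes, and all 10 were found and passed the filter on low counts. Each library was made from the whole ventricle of 14.5-day mouse embryos (E14.5). Control embryos had 2 floxed Lem2 alleles (Lem2 f/f), and conditional knockout (cKO) embryos had the same alleles plus a Cre transgene labelled XMLC2V. Lem2, gene symbol Lemd2, encodes a protein of the inner nuclear membrane. The study asked how the ventricle changes when this gene is targeted. The labels neither spell out the promoter of the transgene nor give a Cre-only group, so effects of Cre and of the deletion cannot be told apart. There were 3 control and 4 cKO libraries, of 28921922 to 39351262 counts each.

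As background, these proteins act as a network rather than a chain. NKX2-5 is a homeodomain factor, GATA4 and GATA6 are zinc finger factors that bind GATA sequences, and FOG2, the product of Zfpm2, is a cofactor that binds GATA factors and adjusts their activity. HAND1 and HAND2 are basic helix-loop-helix factors known for the growth of the left and the right ventricle. ISL1 marks progenitors of the second heart field and is switched off as most of their descendants become muscle. SRF binds CArG boxes in genes of the contractile apparatus, myocardin (Myocd) is its coactivator, and SMYD1 is a muscle methyltransferase required for ventricle formation. Isl1 aside, these genes continue to be transcribed in the working ventricle, in muscle and for some also in endocardium, epicardium or valve cells.

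Targeting was visible in every cKO library. Lemd2 stood at 36.8, 34.4 and 36.4 CPM in controls 1 to 3 and at 18.5, 17.1, 16.3 and 13.7 CPM in cKO replicates 1 to 4, where CPM is the count relative to the TMM-scaled library size. It fell by 1.13 on the log2 scale (SE 0.086, adjusted p = 0.00135, edgeR's quasi-likelihood test, adjusted by Benjamini-Hochberg over all genes tested). Among 14887 genes tested, 162 (1.09%) passed an adjusted p of 0.05 in this comparison, 48 lower and 114 higher in cKO. Xist was expressed in cKO replicates 3 and 4 (1324 and 1102 CPM) and reached at most 0.504 CPM in the other 5 libraries, so sex was unevenly spread over the groups. Heart muscle was well represented in each library, since the 8 cardiomyocyte markers summed to 33740 to 36496 CPM in controls and to 29951 to 35089 CPM in cKO, led by Myh7 in each library. Atrial and sinus node markers summed to 1584 to 1801 CPM in controls and to 1694 to 1897 CPM in cKO. Most of that sum came from Myl4 (1107 to 1372 CPM over the libraries) and Myl7 (315 to 437 CPM). No other marker of that list exceeded 48.9 CPM, so the sum mostly follows these genes. Nerve and glia markers were at 10.2 to 15.0 CPM in controls and 10.9 to 12.8 CPM in cKO. Of the 9 cell type lists summed, the macrophage list alone did not overlap between groups. Among single genes tested, 8.67% lay wholly higher in cKO and 8.28% wholly lower. The macrophage sum was 94.7 to 97.8 CPM in controls and 112 to 123 CPM in cKO, with 8 of 8 genes fitted higher and C1qb called. The part of these cell types in the values below was not tested. In a tissue sample, fewer cells of a type and less RNA per cell cannot be told apart.

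None of the 10 factors passed edgeR's test over all genes, 0 lower beside 0.322% of genes and 0 higher beside 0.766%. An unadjusted p under 0.05 was reached by 3 of the 10, beside 2665 of all genes tested (17.9%), and DESeq2 called Zfpm2 and Hand1, beside 4.68% of the 13440 genes it gave an adjusted p. Mean cKO levels ran from 80.4% of control for Hand1 to 105% for Gata4 in 9 of the genes, while Isl1, a gene of few counts, stood at 37.0%. The median log2 fold change was -0.05 over the 10 genes and -0.01 over all genes tested, and 8 of the 10 were fitted below 0. Isl1 aside, the lowest fitted values were those of Hand1, Gata6 and Zfpm2. Every cKO library lay below every control in Zfpm2, Hand1 and Smyd1, 3 of 10 genes, beside 8.28% of all genes tested; the reverse held for 0 of 10, beside 8.67%.

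**Figure D1:**
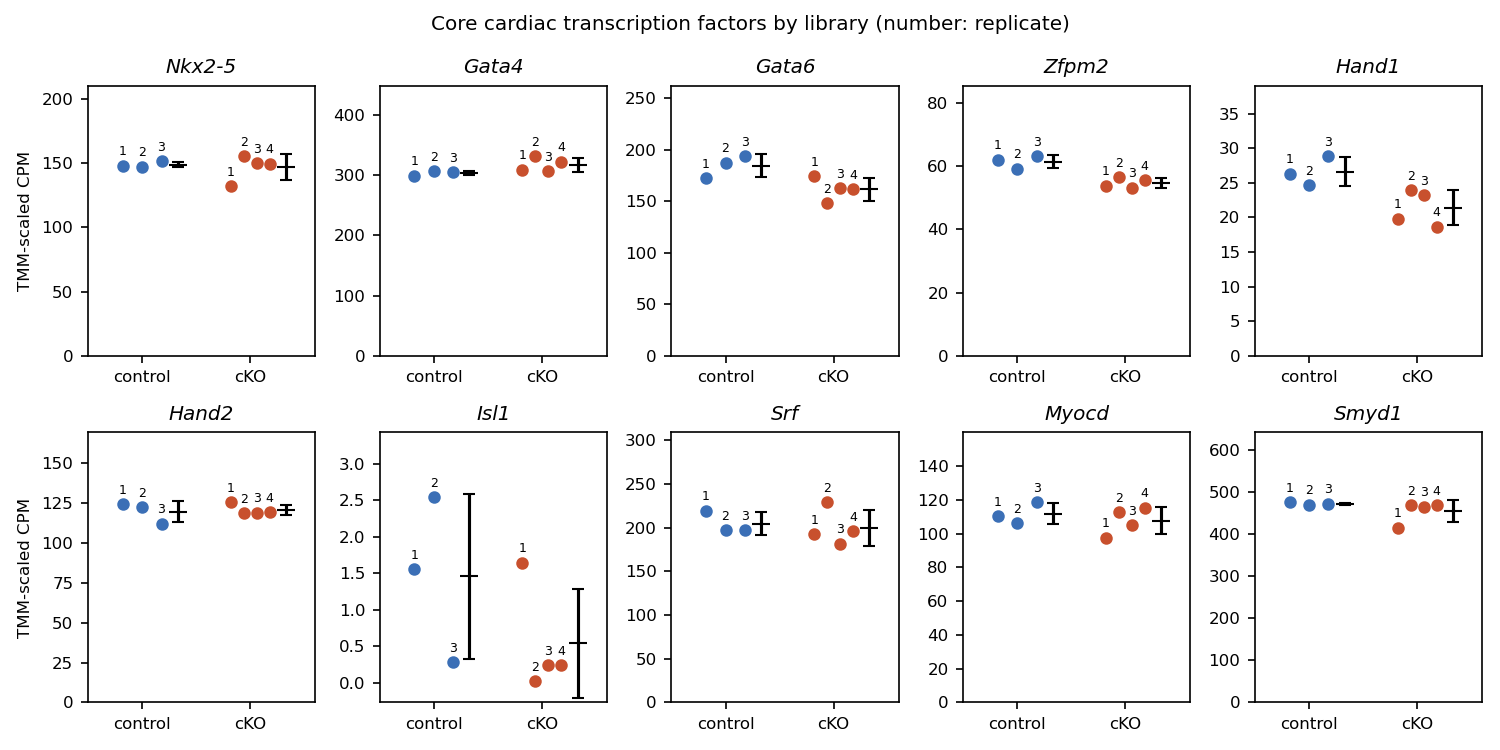
TMM-scaled CPM (y axis, starting at or below 0) of the 10 factors in 3 control (blue) and 4 cKO (orange) libraries, numbered by replicate, with the group mean and SD in black. The groups separate without overlap in Zfpm2 and Hand1 and narrowly in Smyd1, while Isl1 spreads from 0.0268 to 2.54 CPM.

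**Figure D2:**
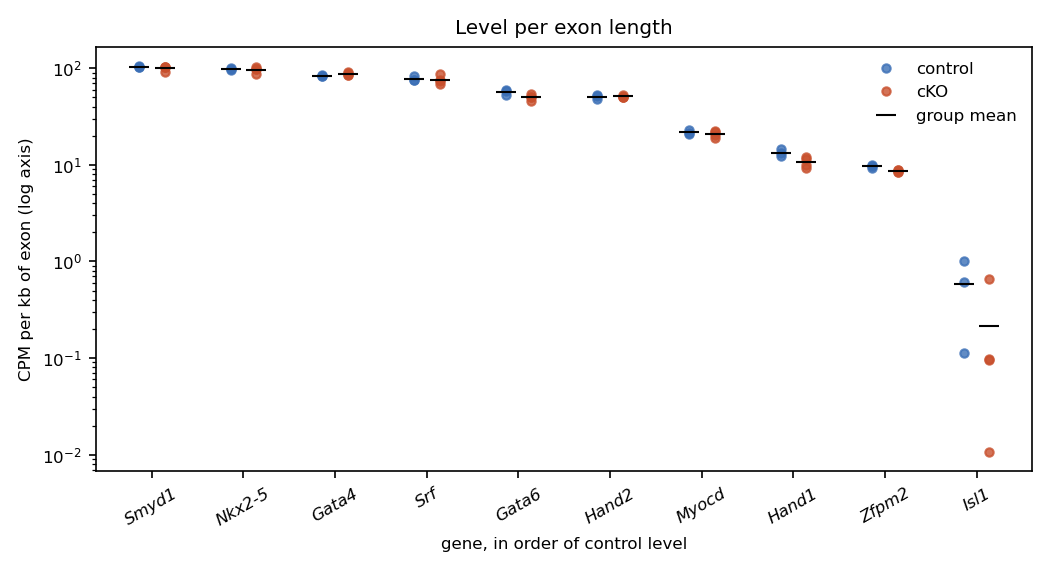
CPM per kilobase of exon (log axis) for the 10 genes in order of their control level, one point per library, control in blue and cKO in orange, with group means as black bars. Smyd1 leads at 104 in control and Isl1 is last at 0.579.

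Per length of exon the factors spanned a wide range of levels. Smyd1 was the most abundant in control ventricle at 104 ± 0.537 CPM per kb (SD, n = 3), followed by Nkx2-5 at 97.6 ± 1.49, Gata4 at 83.4 ± 1.06 and Srf at 78.1 ± 4.96 CPM per kb. Gata6 (57.1 ± 3.39 CPM per kb) and Hand2 (50.8 ± 2.81) formed the middle, and Myocd (21.8 ± 1.21), Hand1 (13.3 ± 1.06) and Zfpm2 (9.68 ± 0.330) were lower. Isl1 came last at 0.579 ± 0.450 CPM per kb. In controls the libraries of neighbours in this order overlapped only for Gata4 and Srf. In cKO they overlapped for each neighbouring pair from Smyd1 through Srf and for Gata6 and Hand2, whose means (49.96 and 51.2 CPM per kb) stood in the opposite order there. Exon lengths are the union of GENCODE M21 basic exons, from 1.525 kb for Nkx2-5 to 6.346 kb for Zfpm2. The gene models behind the deposited counts are not given in the sources used here, so a close order can shift with the length used.

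Nkx2-5 (mm10 chromosome 17, 26838665 to 26841566, minus strand), a homeobox gene known as an early marker of the cardiac lineage, overlapped between the groups. It stood at 148, 147 and 151 CPM in controls 1 to 3 and at 132, 156, 150 and 150 CPM in cKO replicates 1 to 4. The other 3 cKO libraries lay at 150 to 156 CPM, and replicate 1 lay below each control. Its log2 fold change was -0.02 (SE 0.053, 95% interval -0.14 to 0.10, adjusted p = 0.878 by edgeR).

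Gata4 (chromosome 14, 63198914 to 63245272, minus strand), which drives many sarcomere and natriuretic peptide genes, was the member with the highest fitted value. Its controls were at 299, 307 and 305 CPM and its cKO libraries at 309, 332, 306 and 322 CPM. Only cKO replicate 3 lay below a control, by less than 1 CPM against control 2. The log2 fold change of 0.06 (SE 0.039, 95% interval -0.02 to 0.15, adjusted p = 0.427 by edgeR) did not pass. Its paralogue Gata6, on chromosome 18 (11052510 to 11085636, plus strand), had a fitted value of the opposite sign. Gata6 read 173, 187 and 194 CPM in controls and 174, 148, 163 and 161 CPM in cKO, where replicate 1 overlapped control 1 and the other 3 cKO libraries were below each control. The value was -0.19 (SE 0.058, 95% interval -0.32 to -0.06, unadjusted p = 0.00852, adjusted p = 0.135 by edgeR; 0.0507 by DESeq2). The span of a non-coding gene on the opposite strand, 1010001N08Rik, covers 98 bases of Gata6 exon. That gene was counted at a mean of 390 reads, and the counting strand is not stated.

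Within each library, Gata6 counts were 0.576, 0.611 and 0.636 times those of Gata4 in controls 1 to 3 and 0.564, 0.446, 0.531 and 0.501 times in cKO replicates 1 to 4. Each cKO ratio was below each control ratio. The mean ratio was 0.608 ± 0.0301 in control and 0.510 ± 0.0504 in cKO (SD, n = 3 and 4); this ratio was chosen after its values were seen and was not tested.

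Zfpm2 (chromosome 15, 40655042 to 41104593, plus strand), the gene of the GATA cofactor FOG2, had the smallest p among the 10. Controls held 62.0, 59.1 and 63.2 CPM, and cKO libraries 53.8, 56.4, 53.1 and 55.5 CPM. All 4 cKO libraries were below all 3 controls, and the mean was 89.0% of control. Its log2 fold change was -0.17 (SE 0.039, 95% interval -0.25 to -0.08, unadjusted p = 0.00182), with an adjusted p of 0.0797 by edgeR and 0.0294 by DESeq2. Over the 17 alternatives its log2 fold change stayed between -0.19 and -0.15. Zfpm1, the related cofactor FOG1, named after its values were seen, had 0.02 (SE 0.048).

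Hand1 (chromosome 11, 57828713 to 57832148, minus strand) showed the lowest mean relative to control after Isl1. Its levels were 26.3, 24.7 and 28.9 CPM in controls and 19.8, 24.0, 23.2 and 18.7 CPM in cKO. The groups did not overlap, but the gap between control 2 and cKO replicate 2 was under 1 CPM. A log2 fold change of -0.31 was fitted (SE 0.093, 95% interval -0.52 to -0.11, unadjusted p = 0.00741, adjusted p = 0.126 by edgeR and 0.0476 by DESeq2). Its value was -0.19 (adjusted p = 0.388 by edgeR) among the libraries coded F169 in their titles, a code the labels do not explain; F191 has 1 library per group and gives no test.

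Hand2 (chromosome 8, 57320983 to 57324518, plus strand) was more abundant than its paralogue Hand1 per exon length, and its groups overlapped. Controls were at 124, 122 and 112 CPM and cKO libraries at 125, 118, 119 and 119 CPM. The cKO libraries fell inside the control range except replicate 1, which was just above it. For Hand2 the log2 fold change was 0.01 (SE 0.042, 95% interval -0.08 to 0.10, adjusted p = 0.922 by edgeR), and its sign turned in 3 alternatives. Hand1 counts were 0.212, 0.201 and 0.258 times those of Hand2 in controls and 0.158, 0.202, 0.195 and 0.157 times in cKO; cKO replicate 2 overlapped control 2. The mean ratios were 0.224 ± 0.0301 and 0.178 ± 0.0239 (SD, n = 3 and 4, not tested). The span of the annotated antisense RNA Hand2os1 covers 1951 exon bases of Hand2, and its exons were not compared. Without a stated counting strand, any reads of Hand2os1 there cannot be told from those of Hand2.

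Promoter windows were read from RefSeq (GRCm38.p6, the build also called mm10; 250 bases before to 50 after the gene start), which matched 5 of the 10 members: Nkx2-5, Hand2, Isl1, Srf and Smyd1. Gata4, Gata6, Zfpm2, Hand1 and Myocd were not matched. Shown is 1 window for each motif read by a factor of the same network: Hand2 for the GATA word, Smyd1 for NKX2-5 and Srf for the CArG box. Capitals mark, on either strand (a match on the other strand appears as its complement), AGATAA, also with T as its first or G as its last base (GATA factors), TNAAGTG (NKX2-5) and the CArG box (SRF). No 2 of the capitalised matches overlap.
Hand2, chr8:57320733-57321032, plus strand: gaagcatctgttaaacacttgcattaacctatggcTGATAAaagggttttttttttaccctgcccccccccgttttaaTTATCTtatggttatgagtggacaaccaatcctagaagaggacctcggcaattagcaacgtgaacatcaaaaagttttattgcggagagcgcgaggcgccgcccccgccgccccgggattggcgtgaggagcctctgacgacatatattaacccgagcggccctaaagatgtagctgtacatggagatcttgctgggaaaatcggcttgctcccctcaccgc
Smyd1, chr6:71262232-71262531, minus strand: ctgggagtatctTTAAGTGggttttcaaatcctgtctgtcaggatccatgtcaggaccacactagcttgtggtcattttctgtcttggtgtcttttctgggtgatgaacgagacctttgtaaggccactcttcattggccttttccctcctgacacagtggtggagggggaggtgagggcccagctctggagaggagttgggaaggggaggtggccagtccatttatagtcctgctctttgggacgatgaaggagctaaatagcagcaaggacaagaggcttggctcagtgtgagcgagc
Srf, chr17:46556113-46556412, minus strand: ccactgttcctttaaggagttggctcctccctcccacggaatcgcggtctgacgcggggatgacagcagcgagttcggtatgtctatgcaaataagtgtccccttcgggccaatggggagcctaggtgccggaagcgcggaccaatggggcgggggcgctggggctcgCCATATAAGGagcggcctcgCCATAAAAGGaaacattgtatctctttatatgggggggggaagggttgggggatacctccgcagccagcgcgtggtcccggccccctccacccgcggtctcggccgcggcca
The Hand2 window held 2 GATA words, as did that of Isl1, and 29.8% of all 32851 windows of this length held at least 1. Smyd1 held 1 TNAAGTG match (11.5% of windows). The Srf window held 2 CArG boxes, at -82 to -73 and -62 to -53 relative to the start, a motif found in 1.63% of windows. None of these 3 motifs was in the Nkx2-5 window. The E-box CANNTG, read by HAND proteins and left in lower case, was in the Hand2, Isl1 and Nkx2-5 windows and in 72.3% of all. None of the 3 printed promoters belongs to a gene that passed the test, and a match is a description of letters, not of binding.

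Srf (chromosome 17, 46546839 to 46556163, minus strand), whose protein binds CArG boxes, varied among libraries more than between groups. It was at 219, 197 and 197 CPM in controls and at 192, 229, 181 and 196 CPM in cKO. The highest and the lowest library were both cKO. Its log2 fold change was -0.03 (SE 0.075, 95% interval -0.20 to 0.14, adjusted p = 0.864 by edgeR), and it changed sign in 4 alternatives. All of its exon bases lie within the span of the antisense gene Gm26904, whose exons were not compared. The count may therefore depend on a counting strand that is not stated.

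Myocd (chromosome 11, 65176571 to 65269990, minus strand), the SRF coactivator, overlapped between groups. Controls held 110, 106 and 118 CPM and cKO libraries 97.5, 113, 105 and 115 CPM. Only cKO replicates 1 and 3 were below the lowest control. Its log2 fold change was -0.05 (SE 0.060, 95% interval -0.19 to 0.08, adjusted p = 0.702 by edgeR).

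Smyd1 (chromosome 6, 71213940 to 71262282, minus strand), the methyltransferase of muscle cells, was steady in controls at 476, 471 and 473 CPM. In cKO it read 416, 469, 465 and 469 CPM. The groups did not overlap, yet 3 of the 4 cKO libraries were within 2% of the control mean and replicate 1 stood apart at 87.9%. The log2 fold change was -0.06 (SE 0.047, 95% interval -0.16 to 0.05, adjusted p = 0.566 by edgeR). It was -0.02 without cKO replicate 1.

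That library was also the lowest of the 7 for Nkx2-5 and Myocd, at 88.6% and 87.3% of the control mean. The summed cardiomyocyte markers were lowest there as well (29951 CPM), and the fibroblast markers were highest (5271 CPM, against 3976 to 5181 CPM in the other 6 libraries). The part of cell makeup in these 3 genes was not tested. Without cKO replicate 1, Nkx2-5 had 0.03, and the median over the 10 genes was -0.02 in place of -0.05; Zfpm2 had -0.16, Gata6 -0.23 and Hand1 -0.28, with adjusted p-values of 0.116, 0.0938 and 0.189 by edgeR.

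Isl1 (chromosome 13, 116298270 to 116309689, minus strand), the progenitor gene, was near the limit of detection. Its deposited counts were 54, 101 and 10 in controls 1 to 3 and 49, 1, 7 and 9 in cKO replicates 1 to 4. In CPM these are 1.56, 2.54 and 0.281 against 1.65, 0.0268, 0.242 and 0.244. The libraries formed a high set of 3 (controls 1 and 2 and cKO replicate 1) and a low set of 4 that cut across genotype. The log2 fold change of -1.52 (SE 0.88, 95% interval -3.49 to 0.45, adjusted p = 0.404 by edgeR) spans both a deep fall and a rise. It moved to -3.12 without cKO replicate 1 and to -0.83 without control replicate 2.

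Elastin (Eln), a matrix gene of arterial and outflow walls named after its values were seen, parted the libraries in the same way. It stood at 282, 680 and 94.5 CPM in controls and at 468, 94.9, 98.8 and 123 CPM in cKO. Rgs5, a mural cell gene also chosen after its values were seen, read 22.3, 29.99 and 16.5 CPM in controls and 26.8, 14.3, 12.6 and 17.1 CPM in cKO. The 3 libraries with Isl1 above 1.5 CPM were also the 3 highest for Eln and for Rgs5, 2 of the 7 markers of smooth muscle and outflow. The other 5 (Acta2, Tagln, Cnn1, Notch3 and Myh11) did not part the libraries this way; Acta2 and Tagln, for instance, were lowest in controls 1 and 2 (767 and 774 CPM, and 63.6 and 89.2 CPM). Shox2, a sinus node factor that shares that site with Isl1 and was likewise named after its values were seen, did not follow, at 9.01, 4.22 and 9.86 CPM in controls and 7.60, 5.78, 12.4 and 1.66 CPM in cKO. The 7 smooth muscle and outflow markers together ran from 1352 to 1849 CPM in controls and from 1388 to 2013 CPM in cKO. Acta2 was the largest part of that sum in each library, at 767 to 1384 CPM. None of the 7 was called, and Myh11 was near 0 at 0.840 to 1.91 CPM. The part of tissue carried along at dissection was not tested. The split of the libraries by Isl1 was not confined to Eln and Rgs5. Hand2 was also highest in controls 1 and 2 and cKO replicate 1, at 124, 122 and 125 CPM against 112 to 119 CPM. Lum, a fibroblast marker, was too, at 95.2, 99.4 and 124 CPM against 68.4 to 85.0 CPM. Tbx20 followed narrowly, at 763, 844 and 802 CPM against 631 to 758 CPM. Lum and Tbx20 were named here after their values were seen. The share of all genes with this split was not computed. Because the high and low sets are separate clusters, no correlation is given.

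**Figure D3:**
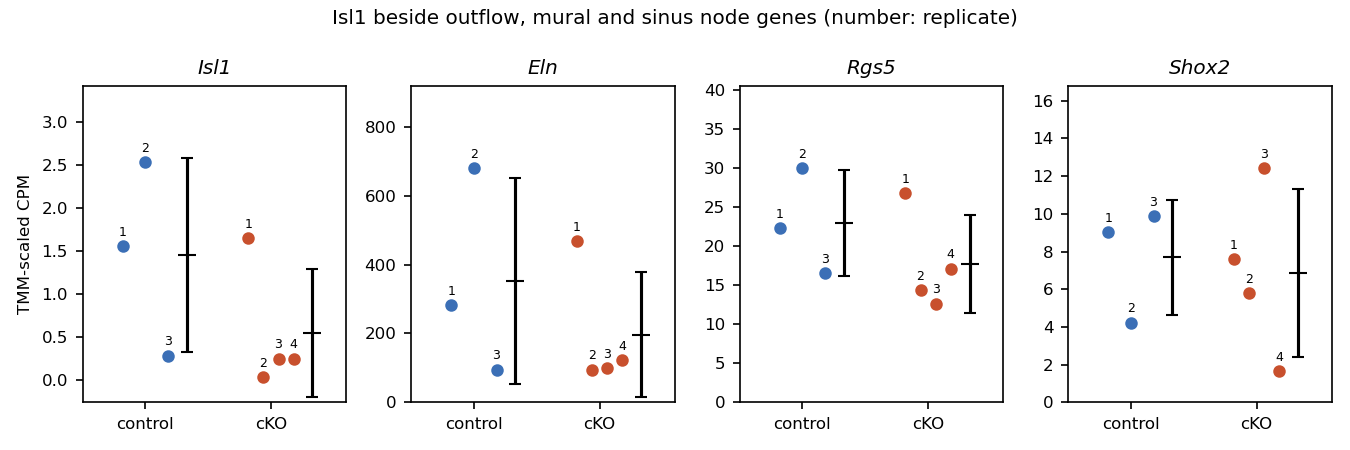
TMM-scaled CPM of Isl1, Eln, Rgs5 and Shox2 in 3 control (blue) and 4 cKO (orange) libraries, numbered by replicate, with mean and SD in black. Controls 1 and 2 and cKO replicate 1 are the highest libraries for Isl1, Eln and Rgs5, from 1.56 CPM upwards for Isl1, but not for Shox2.

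Genes of proteins that work with these factors gave no call. Of 20 partner and cofactor genes 19 were tested and 0 passed by edgeR, beside 1.09% of all genes tested. DESeq2 also called 0 of them, beside 4.68% of all genes with an adjusted p. An unadjusted p under 0.05 by edgeR was reached by 2, beside 17.9% of all genes tested. Of the 19, 14 were fitted below 0. Their median log2 fold change was -0.04, beside -0.01 over all genes tested. Their summed level was 3587 to 3688 CPM in controls and 3433 to 3524 CPM in cKO. These sums did not overlap, but the share of comparable gene sets that do so was not computed. The largest parts were Tbx20 (631 to 844 CPM), Naca (643 to 794 CPM) and Tead1 (480 to 520 CPM). The smallest p belonged to Jarid2, a cofactor of polycomb complexes that restrains cardiac growth, at 99.8, 99.1 and 103 CPM in controls and 93.8, 91.4, 92.6 and 99.0 CPM in cKO. Each cKO library was below each control for Jarid2, replicate 4 by little (log2 -0.09, SE 0.036, adjusted p = 0.222 by edgeR). Ldb1, the LIM-domain binding partner of ISL1, had -0.09 (SE 0.040). The myocardin-related SRF coactivators Mkl1 and Mkl2 had -0.11 (SE 0.052) and -0.08 (SE 0.052), and Mkl1 overlaps Sgsm3 on the opposite strand.

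Among 20 textbook targets of the GATA, NKX2-5, HAND and SRF proteins, 0 passed by edgeR, beside 1.09% of all genes tested. An unadjusted p under 0.05 by edgeR was reached by 11 (17.9% of all genes did). Fitted below 0 were 8, and the median log2 fold change was 0.08. DESeq2 called 3 of the 20, Nppa, Ryr2 and Irx4, against 4.68% of all genes with an adjusted p. The natriuretic peptide genes are targets of GATA4 and NKX2-5. Nppa read 1129, 1405 and 1150 CPM in controls and 1526, 2190, 2188 and 1703 CPM in cKO, with no overlap (log2 0.63, SE 0.13, adjusted p = 0.061 by edgeR). Nppb read 138, 94.7 and 81.0 CPM against 143, 217, 168 and 158 CPM, again without overlap (log2 0.72, SE 0.18, adjusted p = 0.0931 by edgeR).

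Other targets had lower values in cKO. Ryr2, the calcium release channel, stood at 589, 569 and 647 CPM in controls and 500, 548, 520 and 501 CPM in cKO (log2 -0.22, SE 0.053, adjusted p = 0.0825 by edgeR). Irx4, the ventricular homeobox gene downstream of NKX2-5 and HAND2, stood at 96.4, 90.6 and 102 CPM and at 71.6, 86.8, 80.8 and 85.5 CPM (log2 -0.25, SE 0.067, adjusted p = 0.105 by edgeR). In both, each cKO library was below each control. The SRF targets Acta2 and Tagln, actin and transgelin genes of immature and smooth muscle chosen after their values were seen, had 0.44 (SE 0.13, adjusted p = 0.118) and 0.64 (SE 0.25, adjusted p = 0.229) by edgeR.

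**Figure D4:**
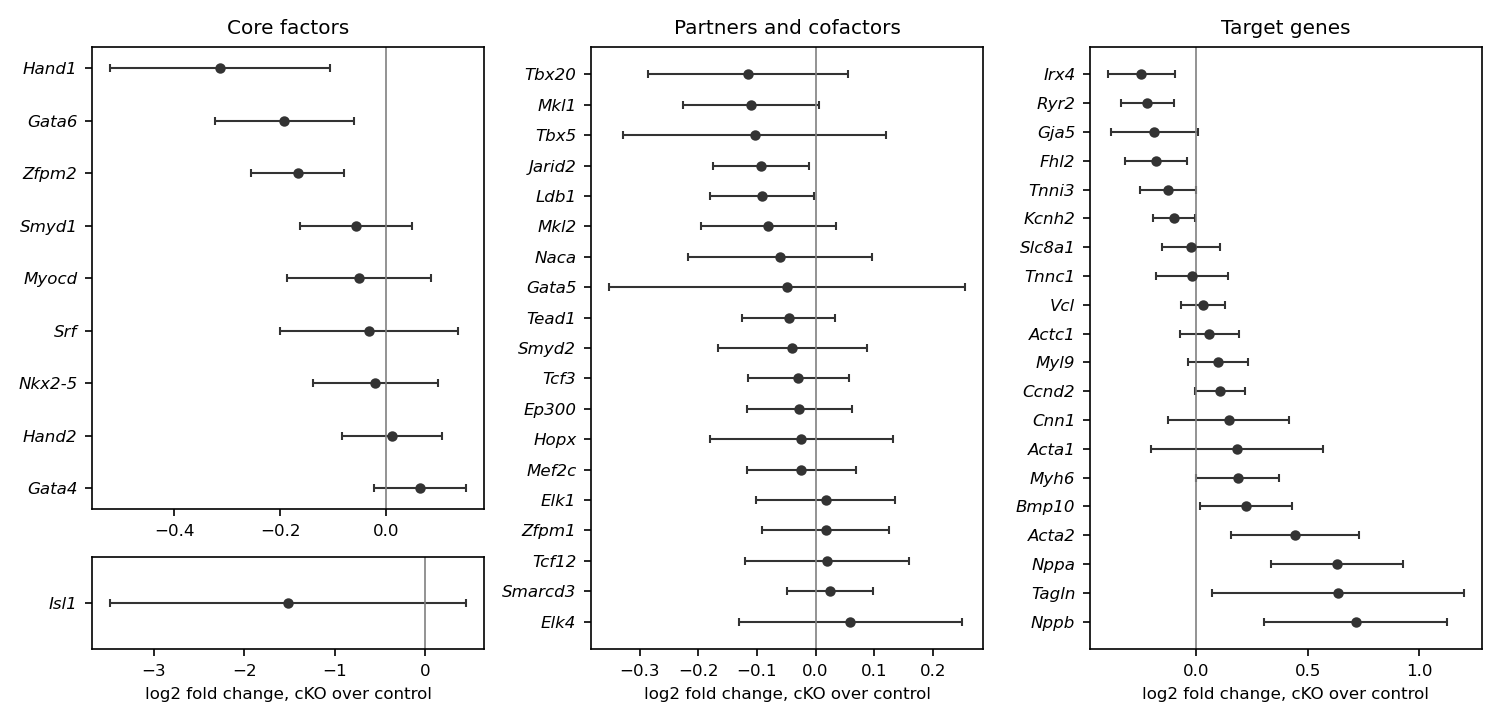
Log2 fold change, cKO over control (x axis), with its 95% interval for the core factors (Isl1 on its own wider axis), 19 partners and cofactors, and 20 target genes; the grey line is no difference. The intervals of Zfpm2, Gata6 and Hand1 lie below 0 before adjustment over all genes, and those of 11 targets exclude 0 before adjustment, 6 above it (among them Nppa and Nppb) and 5 below (among them Ryr2 and Irx4).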

How the data were processed

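RNA was sequenced from whole embryonic ventricle with a directional kit, per the labels' protocols. The authors deposited estimated counts per gene, of which 30.3% were not whole. The submitters' processing notes name STAR 2.4.2a, HTSeq 0.6.1 and mm10 without saying what each did, and no source states the counting strand. The labels list 4 samples in each group. Control replicate 4 was not analysed here: 1 value column matched no title, equalled the sum of the other 7 and was not used.

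The deposited estimated counts were rounded and filtered with filterByExpr of edgeR 4.0.16 (minimum count 10, 471 genes removed), scaled by TMM and tested with glmQLFit and glmQLFTest (R 4.3.3), with Benjamini-Hochberg adjustment over all genes at 0.05. SEs and 95% intervals come from the same fit. The step was also run on simulated counts with known changes, and the outcome is not given here. A gene that was not called may still differ between the groups. The labels name no litters, so a p-value here reflects only how much these libraries vary. Genes named are Lemd2, the 10 factors and, of the partner and target lists, called genes or else the 4 smallest p. Xist was named for sex, and Cnn1, Notch3 and Myh11 to complete the smooth muscle and outflow list. Some genes were named as called in a summed list or as its largest parts. Genes that overlap a named gene are also given. Others are said to be chosen after their values were seen. Members, lists and rules were chosen with earlier results of these data known. Alternatives used DESeq2 1.42.0, limma-voom (limma 3.58.1), other scaling factors, no filter, title codes, Y-linked expression, a replicate block and libraries left out.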

Additional observations from a re-analysis of the deposited data

Results flagged for a closer look

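For a single gene, the rule for 1 library far from the others gives a flag by chance in about 1 in 20. Among the 4 cKO libraries, 3 of the 11 genes examined were flagged, but all were read in the same libraries. The share flagged over all genes was not computed, so no excess in these genes is shown. In each of the 3 flagged genes the library that stood apart was cKO replicate 1. Its Smyd1 level of 416 CPM was the low one, against 465 to 469 CPM in the other 3 cKO libraries. Its Isl1 level of 1.65 CPM was the high one, against 0.0268 to 0.244 CPM. Its Hand2 level of 125 CPM was high as well, against 118 to 119 CPM, but controls 1 and 2 were close to it at 124 and 122 CPM.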

How the results depend on the processing

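Across 17 alternatives, Gata4, Gata6, Zfpm2, Hand1, Isl1, Myocd and Smyd1 kept the sign of their fold change. The number of core factors called was 0 in each alternative except DESeq2, which called 2, and no partner was called in any. DESeq2 called 629 genes over the whole table, against 162 by edgeR, and 3 targets; with the F code as a term 1 target, Acta2, was called. The whole-table count was 20 within F169, 20 with the level of Y-linked genes in the model and 17 when both cKO libraries with Xist were dropped. With those 2 settings on sex the median over the core factors was -0.0915 and -0.0909 in place of -0.0545, and Srf had 0.0525 and 0.0442. Leaving out 1 library at a time gave 28 to 133 genes, 0 to 1 target (Nppa, without cKO replicate 1), medians of -0.0874 to -0.0160, and values of -0.0470 to 0.0273 for Nkx2-5, -0.0340 to 0.0402 for Hand2 and -0.102 to 0.0223 for Srf. Hand2 had -0.0270 within F169. The cause was not tested. With a replicate block over replicates 1 to 3, 13 genes and 0 core factors were called. Libraries of equal number did not deviate together (r = 0.0386, -0.0751 and -0.0791), so the numbers gave no sign of pairing. Over all control and cKO pairs, r was highest for control 3 with cKO replicate 4, both coded F191 (0.224). It was lowest for control 3 with cKO replicate 1 (-0.200). Pairing by F code was not tested. Counts of 1 to 101 limit Isl1.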
